A study of Homo sapiens with 40 samples.

Results

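The response to NPAT siRNA on day 3 was compared between U2OS, an osteosarcoma cell line, and hTERT-RPE1, normal retinal pigment epithelial cells that were immortalized with telomerase. The comparison took 8 of the 40 arrays of the study. They are 2 arrays each of U2OS cells with NPAT siRNA, U2OS cells with control siRNA, hTERT-RPE1 cells with NPAT siRNA and hTERT-RPE1 cells with control siRNA, all at 15 nM and day 3. The study asked how normal and tumor cells respond to the loss of the histone gene regulators CASP8AP2, NPAT and HINFP, and its other arrays hold the other siRNAs and earlier days. NPAT siRNA was a pool of siRNAs to 1 gene, and the control was a pool with no intended target. Both duplicates came from 1 transfection session, so their spread does not include variation between separate experiments, and each kind of cell is represented by 1 line.

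All 22069 Ensembl genes on the array were included. For each gene the effect of NPAT siRNA in hTERT-RPE1 cells (NPAT minus control, log2) was subtracted from its effect in U2OS cells. The result is called the line difference here. A line difference above 0 means that the transcript responded more upward in U2OS cells, and one below 0 that it responded more upward in hTERT-RPE1 cells. A gene was called when its limma adjusted p was under 0.05. Levels are log2 intensities on each array, which compare 1 gene between arrays but not different genes with each other.

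NPAT is a nuclear protein that gathers at the clusters of replication-dependent histone genes and switches on their transcription when cells enter S-phase. It is a substrate of cyclin E-CDK2, and it works at the histone locus body together with CASP8AP2 (FLASH). HINFP is a zinc finger factor that binds histone H4 promoters and recruits NPAT.

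A symbol could be paired with 1901 of the 22069 genes (8.61%), so functions are described for these genes and the remaining ones enter the counts. Neither the 64 core nor the 6 linker histone genes that depend on replication were among them, and their transcripts are not described by name here. Replicate arrays of the 4 groups correlated with r between 0.995 and 0.997 across genes, and log2 values ran from 2.32 to 13.22. Among 12 marker genes of cell types with a symbol, the retinal pigment epithelium markers RLBP1 and BEST1 were low in control cells of both lines (3.78 and 3.99 in hTERT-RPE1, 3.55 and 3.99 in U2OS cells). The osteoblast regulator RUNX2, 1 of 3 measured osteoblast markers, was higher in hTERT-RPE1 (9.67) than in U2OS cells (7.87). These named markers did not separate the lines by tissue of origin, and the levels of the other markers are not given here. None of the 12 was called in the line difference by limma, and 1 had an unadjusted p under 0.05.

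The targeted transcript was lowered in both lines. NPAT (ENSG00000149308) read 8.44 and 8.28 in the control arrays of hTERT-RPE1 cells and 7.06 and 7.03 with NPAT siRNA. In U2OS cells it read 8.65 and 8.59 with control and 6.92 and 7.15 with NPAT siRNA. The arrays did not overlap in either line, and the line difference of NPAT was -0.27 (SE 0.15, 95% interval from -0.63 to 0.08, limma adjusted p 0.354). CASP8AP2 (line difference 0.13, adjusted p 0.692) and HINFP (-0.12, adjusted p 0.799) were not called either. Levels are per array, so fewer cells of a kind and less RNA per cell cannot be told apart.

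The response to NPAT siRNA differed between the lines for a small share of transcripts. Of the 22069 genes, 764 had a called line difference (3.46%), with 412 higher (1.87%) and 352 lower (1.59%) in U2OS cells. The median line difference over all genes was 0.03, the median over the higher genes was 0.75 and that over the lower genes was -0.73. With every array centred on its own median, the split turned to 285 higher and 486 lower, so which direction held more genes depends on the scaling. The 764 genes were chosen from the same arrays for differences large against the spread. A kept sign with 1 array left out is therefore not an independent result. Removing 1 array gave between 153 and 874 called genes, and each of the 764 kept its sign in all 8 such fits, while 131 also stayed called in all 8. The lowest count came without the first NPAT siRNA array of hTERT-RPE1 cells, and the first control array of U2OS cells gave the next lowest (205). Counts were also lower without the second U2OS NPAT array (281), the first U2OS NPAT array (317), the second U2OS control array (361) or the second hTERT-RPE1 NPAT array (369).

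Most of the called genes were called against control in only 1 of the lines. A missing call does not show that the line did not respond. Over the genes with a higher line difference the median effect was 0.50 in U2OS and -0.26 in hTERT-RPE1 cells. Over the lower ones it was -0.36 and 0.34, against -0.002 and -0.03 for all genes. The genes were chosen by their line difference, which itself pulls the medians of the lines apart. Against its own control, NPAT siRNA changed 1794 genes in U2OS cells (8.13%, with 3.84% higher and 4.29% lower) and 1112 in hTERT-RPE1 cells (5.04%, with 2.37% higher and 2.67% lower). Leaving out any 1 of the 4 arrays of the line gave between 510 and 927 called genes in U2OS cells and between 235 and 875 in hTERT-RPE1 cells. Of the 764 genes, 405 (53%) were called in U2OS cells only when set against control, with 242 that rose and 163 that fell there. A further 220 genes (28.8%) were called in hTERT-RPE1 cells only, of which 124 rose and 96 fell. In 32 genes the lines were called in opposite directions, with 18 that rose in U2OS and fell in hTERT-RPE1 cells and 14 the other way. Only 13 were called in the same direction in both lines, and 94 in neither. Among genes with a symbol, 89 of 1901 had a called line difference (4.68%), 48 higher (2.52%) and 41 lower (2.16%) in U2OS cells. Differences of at least 1 were called for 170 of all genes (0.77%), 102 higher (0.462%) and 68 lower (0.308%).

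**Figure D1:**
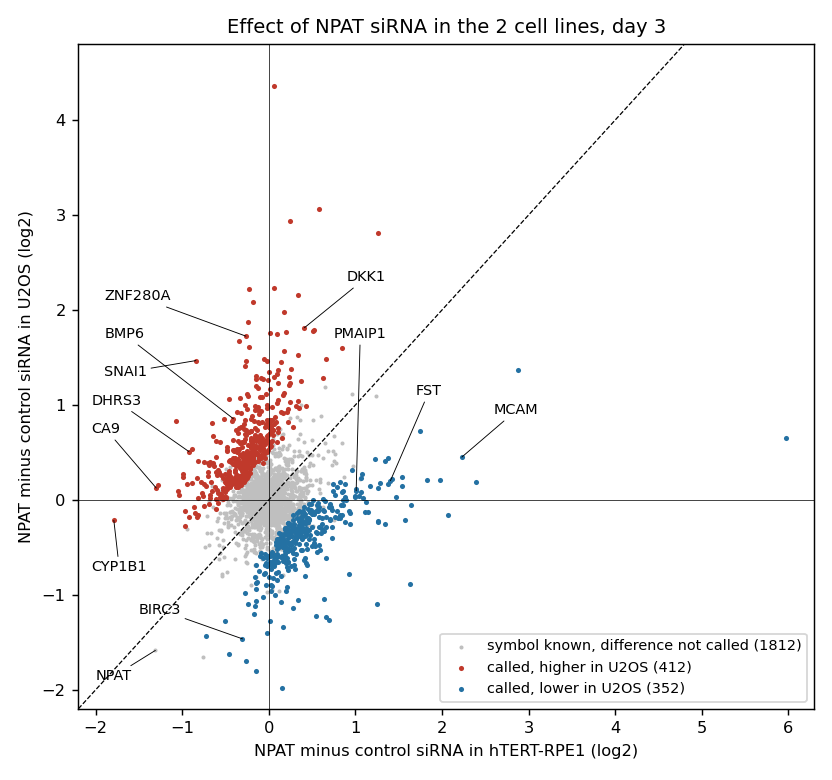
Effect of NPAT siRNA (NPAT minus control, log2) in hTERT-RPE1 cells on the x axis and in U2OS cells on the y axis for the 764 called genes (red, 412 higher in U2OS, blue, 352 lower) and the other genes with a symbol (grey). The dashed line marks equal effects, and the called genes lie on both sides of it, with SNAI1, DHRS3 and BMP6 at negative values in hTERT-RPE1 and positive values in U2OS cells.

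The transcript with the largest line difference among named genes was SNAI1 (ENSG00000124216), which encodes Snail, a zinc finger repressor of E-cadherin that drives epithelial to mesenchymal transition. In hTERT-RPE1 cells SNAI1 read 8.32 and 7.97 with control siRNA and 7.14 and 7.47 with NPAT siRNA. In U2OS cells it read 7.45 and 7.52 with control and 8.99 and 8.91 with NPAT siRNA. The arrays separated in both lines and in opposite directions. SNAI1 fell to 55.7% in hTERT-RPE1 cells (log2 -0.84, limma adjusted p 0.0035) and rose 2.76-fold in U2OS cells (log2 1.47, adjusted p 3.11e-05). Its line difference was 2.31 (SE 0.19, adjusted p 5.33e-05), between 2.13 and 2.48 with 1 array left out.

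DHRS3 and BMP6 also rose in U2OS and fell in hTERT-RPE1 cells. DHRS3 encodes a retinaldehyde reductase that limits retinoic acid synthesis. DHRS3 read 10.16 and 10.37 in hTERT-RPE1 controls and 9.30 and 9.39 with NPAT siRNA, and 5.03 and 5.39 in U2OS controls and 5.66 and 5.78 with NPAT siRNA. It was far more abundant in hTERT-RPE1 cells, and the 2 lines moved toward each other (line difference 1.43, SE 0.18, adjusted p 0.00117). BMP6 encodes a secreted bone morphogenetic protein. BMP6 read 6.34 and 6.47 in hTERT-RPE1 controls and 5.88 and 6.10 with NPAT siRNA, and 6.30 and 6.32 in U2OS controls and 7.21 and 7.12 with NPAT siRNA. Its level was alike in the control cells of both lines and apart after NPAT siRNA (line difference 1.27, SE 0.14, adjusted p 0.000437). Both kept their calls in all 8 fits with 1 array left out.

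The reverse pattern, a fall in U2OS and a rise in hTERT-RPE1 cells, was called for NEIL3 and ABCE1. NEIL3 is a DNA glycosylase of replicating cells that removes oxidized bases and opens interstrand crosslinks. NEIL3 read 7.98 and 8.07 in hTERT-RPE1 controls and 8.45 and 8.39 with NPAT siRNA, and 7.85 and 7.94 in U2OS controls and 7.56 and 7.43 with NPAT siRNA. The shifts were small and of similar size in both lines (0.39 and -0.40), and the arrays did not overlap in either (line difference -0.79, SE 0.13, adjusted p 0.00774). ABCE1, which recycles ribosomes after translation ends, changed by 0.37 in hTERT-RPE1 and by -0.35 in U2OS cells (line difference -0.72, SE 0.13, adjusted p 0.0127). The ABCE1 call was lost without the first NPAT array of hTERT-RPE1 cells (-0.64, adjusted p 0.0735), the first control array of U2OS cells (-0.71, 0.0536) or the second NPAT array of U2OS cells (-0.65, 0.0548).

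The promoters of 4 called genes are shown. NEIL3, ECT2 and BORA are lower genes that act in replicating or dividing cells, and CA9 is a hypoxia-induced gene that fell in hTERT-RPE1 cells. They are the 250 bases before the start of each gene in RefSeq (GRCh38.p14), all on the plus strand. Capitals mark TTTGAA, the cell cycle genes homology region found in many genes of G2 and mitosis, in NEIL3, ECT2 and BORA, and the reverse complement of ACGTG, the core of the hypoxia response element, in CA9.
NEIL3, chr4:177309624-177309873: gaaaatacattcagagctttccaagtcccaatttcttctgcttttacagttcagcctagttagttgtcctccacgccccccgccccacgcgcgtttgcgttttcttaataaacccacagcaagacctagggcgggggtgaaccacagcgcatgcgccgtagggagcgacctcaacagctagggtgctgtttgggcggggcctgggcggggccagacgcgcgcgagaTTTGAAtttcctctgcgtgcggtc
ECT2, chr3:172750476-172750725: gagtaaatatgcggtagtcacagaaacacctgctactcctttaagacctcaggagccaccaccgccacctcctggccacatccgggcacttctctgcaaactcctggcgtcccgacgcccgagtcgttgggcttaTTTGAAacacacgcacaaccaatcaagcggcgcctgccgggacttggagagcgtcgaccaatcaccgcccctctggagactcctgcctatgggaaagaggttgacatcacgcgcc
BORA, chr13:72727673-72727922: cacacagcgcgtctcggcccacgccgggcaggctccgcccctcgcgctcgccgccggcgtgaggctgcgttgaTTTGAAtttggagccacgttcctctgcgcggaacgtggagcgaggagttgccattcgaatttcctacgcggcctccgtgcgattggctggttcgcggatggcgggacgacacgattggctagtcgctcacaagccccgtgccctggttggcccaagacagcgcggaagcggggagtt
CA9, chr9:35673678-35673927: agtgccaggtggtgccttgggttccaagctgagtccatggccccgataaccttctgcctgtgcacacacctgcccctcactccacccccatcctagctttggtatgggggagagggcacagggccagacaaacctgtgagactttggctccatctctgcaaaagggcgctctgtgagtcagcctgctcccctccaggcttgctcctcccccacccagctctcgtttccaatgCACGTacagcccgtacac

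The TTTGAA match begins 24 bases before the start in NEIL3, 115 in ECT2 and 177 in BORA, and the CA9 match begins 18 bases before it. Promoters were found for 64 of the 89 called genes with a symbol, 30 lower and 34 higher in U2OS cells. TTTGAA, searched on both strands, was in 7 of the 30 lower genes (23.3%), in 2 of the 34 higher genes (5.88%) and in 13.6% of 27305 promoters of the same length. The lower genes with it were NEIL3, ECT2, BORA, PARPBP, GPSM2, FST and CTSC, and the higher ones were DKK1 and VIP. CCAAT was in 40% of the lower and 41.2% of the higher genes against 33% of all promoters. GTCCGC, the core of the HINFP site, was in 5 lower (16.7%) and 4 higher genes (11.8%) against 10.3%. ACGTG was in 16.7% and 17.6% against 18.7%, TATAAA in 3.33% and 8.82% against 11.1%, and the AP-1 site TGACTCA in 3.33% and 11.8% against 4.16%. The 27305 promoters were not limited to genes with a paired symbol, so which genes had a symbol may enter the gaps from their shares. The motifs were chosen after the expression values were seen, and a match is a run of letters and no evidence of binding.

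DKK1 and ZNF280A rose in U2OS cells by far more than in hTERT-RPE1 cells. DKK1, a secreted inhibitor of Wnt signaling, read 4.73 and 4.72 in U2OS controls and 6.48 and 6.60 with NPAT siRNA. In hTERT-RPE1 cells it was already abundant, at 9.91 and 9.79 with control and 10.33 and 10.19 with NPAT siRNA. DKK1 rose in both lines, by 1.81 in U2OS and 0.41 in hTERT-RPE1 cells on the log2 scale, and the line difference was 1.40 (SE 0.14, adjusted p 0.000339). ZNF280A, a zinc finger protein, rose from 5.65 and 5.48 to 7.23 and 7.34 in U2OS cells and was near the bottom of the range in hTERT-RPE1 cells (3.85, 3.69, 3.60 and 3.41 on the 4 arrays). Its line difference was 1.99 (SE 0.22, adjusted p 0.000542), and both genes kept the call in all 8 fits with 1 array left out.

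The Wnt regulators with a symbol numbered 4 of 20 listed, and 2 had a called line difference, both higher in U2OS cells, where 1.87% of all genes and 2.52% of genes with a symbol were called higher. These were DKK1 and NKD1, which binds Dishevelled and dampens Wnt signaling. NKD1 went from 4.97 and 5.08 to 5.98 and 6.43 in U2OS cells and read 4.84 and 4.65 with control and 4.51 and 4.72 with NPAT siRNA in hTERT-RPE1 cells. Its arrays overlapped in hTERT-RPE1 cells only (line difference 1.30, SE 0.23, adjusted p 0.0122), and the call was lost without the first NPAT array of hTERT-RPE1 cells (1.20, adjusted p 0.0685) or the first control array of U2OS cells (1.25, 0.0551). SFRP1 (0.19) and WNT5A (0.25) were not called, and the median line difference of the 4 was 0.78 against 0.03 for all genes. Notch genes also had 4 of 14 measured and 2 called higher in U2OS cells, against the same 1.87% of all genes and 2.52% of those with a symbol.

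DLL4, a Notch ligand, read 3.58 and 3.63 in U2OS controls and 5.13 and 5.14 with NPAT siRNA. In hTERT-RPE1 cells DLL4 stayed close to the bottom of the range, at 3.73 and 3.72 with control and 4.03 and 4.09 with NPAT siRNA. HEY1, a transcriptional repressor that Notch induces, went from 5.59 and 5.49 to 6.79 and 6.89 in U2OS cells and from 4.67 and 4.81 to 4.86 and 5.09 in hTERT-RPE1 cells. DLL4 was near the bottom of the range in the U2OS controls too, so no fold is given for it, and its rise in U2OS cells was 1.53 on the log2 scale. HEY1 rose 2.46-fold there. The line differences of DLL4 and HEY1 were 1.19 (SE 0.27, adjusted p 0.0329) and 1.07 (SE 0.20, adjusted p 0.017). The Notch ligand JAG1 rose in U2OS cells (0.65) with a line difference of 0.51 that was not called, and NOTCH2 had 0.06. DLL4 lost its call in each of the 8 fits with 1 array left out (adjusted p up to 0.118, line difference between 1.16 and 1.22). HEY1 kept it in 4 (adjusted p up to 0.0812), without either hTERT-RPE1 control array, the second NPAT array of hTERT-RPE1 cells or the first NPAT array of U2OS cells. DLL4 also lost its call with cyclic loess (1.09, adjusted p 0.0601) or quantile normalization (1.04, 0.0708).

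Among named transcripts that fell in hTERT-RPE1 cells with no called change in U2OS cells, CYP1B1 had the largest line difference. It encodes a cytochrome P450 that oxidizes estrogens and polycyclic hydrocarbons and is induced through the aryl hydrocarbon receptor. CYP1B1 read 9.82 and 10.07 with control and 8.03 and 8.27 with NPAT siRNA in hTERT-RPE1 cells, a fall to 28.9%. In U2OS cells it lay near the bottom of the range on all arrays (3.66 and 3.80, then 3.47 and 3.57). The line difference was 1.57 (SE 0.22, adjusted p 0.00311), and it kept its call in all 8 fits with 1 array left out.

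CA9, a carbonic anhydrase of the cell surface that hypoxia induces and whose promoter is printed with that of NEIL3, showed the same arrangement. CA9 read 9.88 and 9.35 with control and 8.18 and 8.45 with NPAT siRNA in hTERT-RPE1 cells, and 5.16, 5.01, 5.33 and 5.09 on the U2OS arrays in the same order. It fell to 40.6% in hTERT-RPE1 cells, and the arrays overlapped in U2OS cells (line difference 1.42, SE 0.26, adjusted p 0.0127). The call was lost without the first NPAT array of hTERT-RPE1 cells (1.29, adjusted p 0.0723) or the first NPAT array of U2OS cells (1.30, 0.0523). Of 21 hypoxia-responsive genes 4 had a symbol, and besides CA9 these were LOX, ENO1 and LDHA, which lay between -0.19 and -0.07 without a call. The share called higher in U2OS cells was 1.87% of all genes and 2.52% of genes with a symbol. CA2, a cytosolic carbonic anhydrase, rose in U2OS cells from 6.57 and 7.11 to 8.22 and 8.04 (line difference 1.23, SE 0.28, adjusted p 0.0341). In hTERT-RPE1 cells CA2 was near the bottom of the range, at 3.30 and 3.54 with control and 3.68 and 3.29 with NPAT siRNA. With only the 8 arrays compared in the fit, CA2 was not called (limma adjusted p 0.0554). It was called only without the first hTERT-RPE1 control array or the second U2OS control array among the 8 fits with 1 array left out (line difference between 0.96 and 1.50, adjusted p up to 0.134), and lost the call with cyclic loess normalization (1.14, adjusted p 0.0533).

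Retinoid genes numbered 7 of 17 with a symbol, and 2 were called, both higher in U2OS cells, beside 2.52% of all genes with a symbol and 1.87% of all genes. Besides DHRS3 this was RARA, a nuclear receptor for retinoic acid, which read 8.40 and 8.36 with control and 7.91 and 7.90 with NPAT siRNA in hTERT-RPE1 cells. In U2OS cells RARA read 7.45 and 7.61 with control and 7.70 and 7.81 with NPAT siRNA (line difference 0.69, SE 0.12, adjusted p 0.00922). Without the first U2OS control array it was 0.61 (adjusted p 0.051). ALDH1A3, which makes retinoic acid, fell in hTERT-RPE1 cells (-0.71) with an uncalled line difference of 0.54. The median of the 7 was 0.12.

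The orphan nuclear receptor NR4A3, an early response gene, fell in hTERT-RPE1 cells from 6.66 and 6.34 to 5.58 and 5.91, while U2OS cells gave 6.11 and 6.05 with control and 6.47 and 6.48 with NPAT siRNA. Its line difference was 1.15 (SE 0.18, adjusted p 0.0056) and kept its call in all 8 fits with 1 array left out. PTGS2, the inducible cyclooxygenase, also fell in hTERT-RPE1 cells (7.03 and 7.30 to 6.31 and 6.52), with 6.44, 6.22, 6.46 and 6.54 on the U2OS arrays. The PTGS2 line difference was 0.92 (SE 0.17, adjusted p 0.0151). It was lost without the first NPAT array of hTERT-RPE1 cells (0.81, adjusted p 0.0773), the second U2OS control array (0.81, 0.0532) or the second U2OS NPAT array (0.88, 0.0553). KLK6, a secreted serine protease, rose in U2OS cells from 8.85 and 9.12 to 9.75 and 9.84 and read 4.07, 4.94, 3.92 and 3.79 on the hTERT-RPE1 arrays. Its line difference of 1.46 (SE 0.30, adjusted p 0.0213) held without either hTERT-RPE1 control array or the second U2OS control array, and was lost in the other 5 fits (adjusted p up to 0.0908).

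Further list members were called higher in U2OS cells with smaller differences. EGR2 (0.73, adjusted p 0.042), an immediate early transcription factor, SMAD7 (0.71, adjusted p 0.0323), an inhibitor of TGF-beta receptors, and ASNS (0.62, adjusted p 0.0433), the asparagine synthetase that ATF4 induces, were each the 1 called member of their list. The share called higher in U2OS cells was 1.87% of all genes and 2.52% of genes with a symbol. The immediate early list had 4 of 25 genes measured, the TGF-beta and YAP list 7 of 20, and the ATF4 list 9 of 25. Each of these calls was lost in most fits with 1 array left out. ASNS kept its call only without the first hTERT-RPE1 control array (adjusted p up to 0.131). SMAD7 kept it without the second hTERT-RPE1 control array or the first U2OS NPAT array (adjusted p up to 0.112), and EGR2 without the first hTERT-RPE1 control array, the second hTERT-RPE1 NPAT array or the second U2OS control array (adjusted p up to 0.174). EGR2 also lost its call with cyclic loess (0.64, adjusted p 0.0737) or quantile normalization (0.65, 0.0566) and after median centring (0.67, 0.0509). ASNS lost it after median centring (0.56, adjusted p 0.0569).

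**Figure D2:**
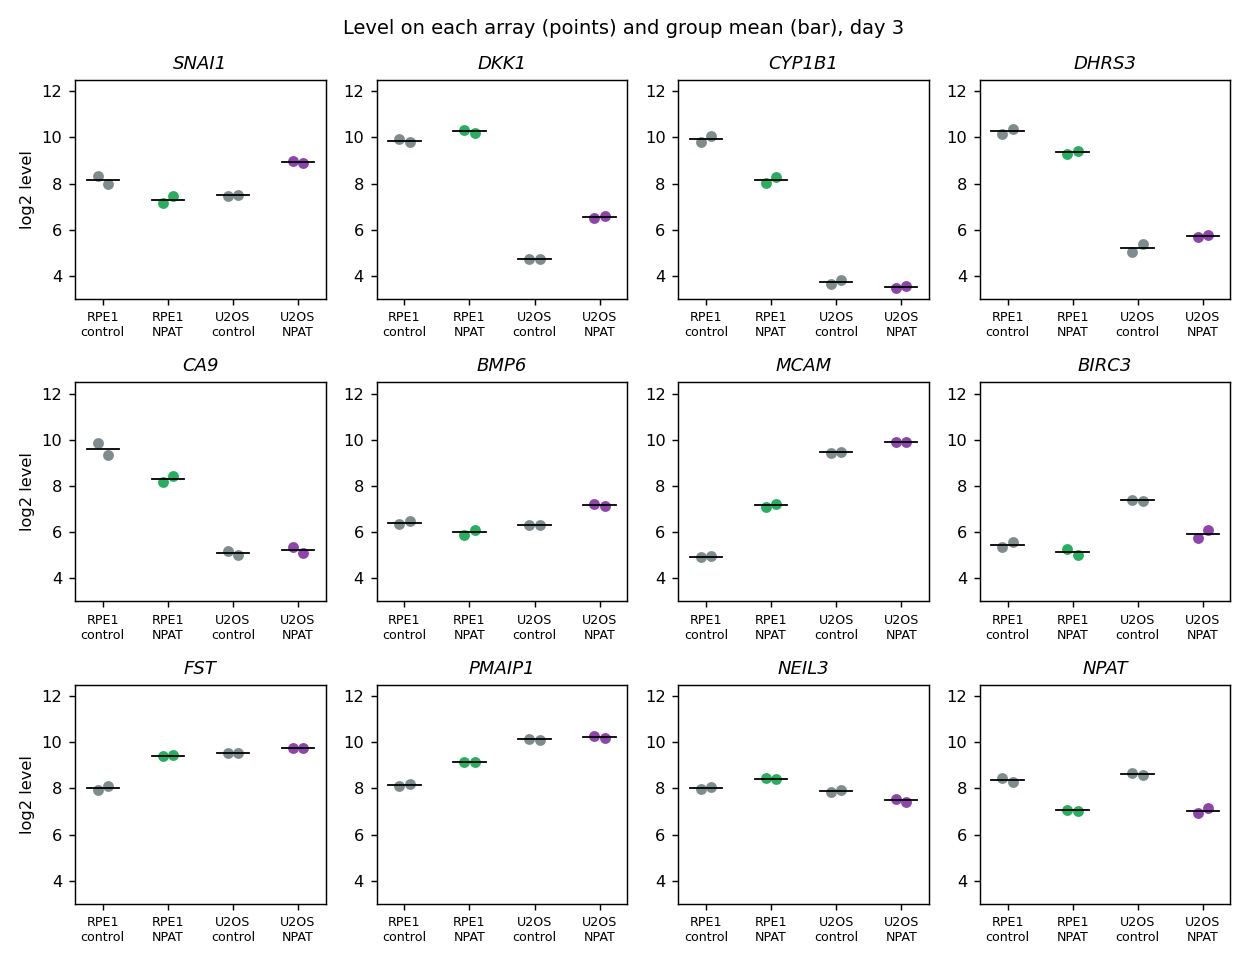
Log2 level of 12 genes on each of the 8 arrays (points, 2 per group) with the group mean (bar), for control and NPAT siRNA in hTERT-RPE1 (labeled RPE1) and U2OS cells. SNAI1 separates in opposite directions in the 2 lines, CYP1B1 and CA9 fall in hTERT-RPE1 cells from a level far above that of U2OS cells, MCAM and FST rise in hTERT-RPE1 cells, and NPAT is lowered in both.

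On the other side, MCAM had the largest negative line difference of the named genes. It encodes CD146, an adhesion molecule of endothelial and melanoma cells. MCAM read 4.92 and 4.95 with control and 7.09 and 7.24 with NPAT siRNA in hTERT-RPE1 cells, and 9.43 and 9.48 with control and 9.89 and 9.93 with NPAT siRNA in U2OS cells. It rose in both lines without overlap, 4.69-fold in hTERT-RPE1 and 1.37-fold in U2OS cells (line difference -1.78, SE 0.14, adjusted p 5.33e-05). The hTERT-RPE1 control levels of MCAM lay below the medians of those arrays (5.25 and 5.26), so the fold in that line is less certain.

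FST encodes follistatin, a secreted protein that binds activins. It rose in hTERT-RPE1 cells from 7.94 and 8.10 to 9.41 and 9.43, and read 9.55 and 9.52 with control and 9.73 and 9.74 with NPAT siRNA in U2OS cells (line difference -1.20, SE 0.14, adjusted p 0.000968). MCAM and FST kept their calls in all 8 fits with 1 array left out. For both the level was higher in U2OS controls than in hTERT-RPE1 controls, and the rise in hTERT-RPE1 cells narrowed that gap.

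SCN9A and COL8A1 went the other way in control level, as they were near the bottom of the range in U2OS cells. SCN9A, a voltage-gated sodium channel subunit, rose in hTERT-RPE1 cells from 7.52 and 7.71 to 8.67 and 8.55 and read 4.25, 4.30, 4.32 and 4.32 in U2OS cells (line difference -0.95, SE 0.14, adjusted p 0.00404). COL8A1, a collagen VIII chain, rose there from 7.06 and 6.90 to 7.95 and 7.72 and read 4.57, 4.74, 4.66 and 4.52 in U2OS cells (line difference -0.91, SE 0.14, adjusted p 0.0056). Both calls held in all 8 fits with 1 array left out. COL8A1 was the 1 called gene among 9 of 25 matrix genes measured, and the median of the 9 was 0.05. The share called lower in U2OS cells was 1.59% of all genes and 2.16% of genes with a symbol.

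Target genes of p53 were represented by 10 of 45 listed, and 4 had a lower line difference in U2OS cells with none higher by limma. At an unadjusted p under 0.05 there were 4 lower and 1 higher. The share called lower was 1.59% of all genes and 2.16% of genes with a symbol. PMAIP1, which encodes the pro-apoptotic BH3 protein NOXA, rose 2.01-fold in hTERT-RPE1 cells, from 8.09 and 8.20 to 9.17 and 9.15. In U2OS cells it read 10.15 and 10.10 with control and 10.27 and 10.17 with NPAT siRNA, with a line difference of -0.91 (SE 0.16, adjusted p 0.0121). CD82, a tetraspanin that restrains metastasis, rose in hTERT-RPE1 cells from 7.72 and 8.07 to 8.76 and 8.89, and its U2OS arrays overlapped (8.00 and 8.18, then 7.77 and 8.18). Its line difference was -1.05 (SE 0.21, adjusted p 0.0188). POLH, a translesion DNA polymerase, rose in hTERT-RPE1 cells (0.39, line difference -0.51, adjusted p 0.0241). FBXO22, a ubiquitin ligase subunit, fell in U2OS cells (-0.44, line difference -0.62, adjusted p 0.0153).

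Other p53 targets with a symbol did not share a direction. The line differences of the 10 measured ran from -1.05 to 0.47 with a median of -0.27, and with cyclic loess or quantile normalization 1 of them was called higher beside the 4 lower. Leaving out 1 array lost each of the 4 calls in some fits. PMAIP1 lost it without the first hTERT-RPE1 NPAT array (-0.90, adjusted p 0.0605), the first U2OS control array (-0.88, 0.0546) or the second U2OS NPAT array (-0.86, 0.0509). CD82 kept it without either hTERT-RPE1 control array, the first U2OS control array or the second U2OS NPAT array (adjusted p up to 0.0668), and FBXO22 without either hTERT-RPE1 control array, the second hTERT-RPE1 NPAT array or the first U2OS NPAT array (adjusted p up to 0.0685). POLH kept it only without the first hTERT-RPE1 control array (adjusted p up to 0.095). MDM2, CDKN1A, GDF15 and ATM have no symbol paired here, so the genes without a symbol may include them.

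Apoptosis regulators had 13 of 26 genes measured and 2 called, both lower, where 1.59% of all genes and 2.16% of genes with a symbol were called lower. Besides PMAIP1 this was BIRC3, an inhibitor of apoptosis that NF-kB induces. BIRC3 fell in U2OS cells from 7.41 and 7.36 to 5.74 and 6.10 (36.3% left) and read 5.33, 5.57, 5.28 and 5.01 in hTERT-RPE1 cells (line difference -1.16, SE 0.22, adjusted p 0.0172). Its call was lost without the first hTERT-RPE1 NPAT array (-1.02, adjusted p 0.082), the first U2OS control array (-1.13, 0.069) or the first U2OS NPAT array (-0.98, 0.0644). In the NF-kB list 6 of 22 genes were measured, with BIRC3 lower and PTGS2 higher. The share called higher was 1.87% of all genes and 2.52% of genes with a symbol. CXCL8, the chemokine interleukin 8, fell in both lines (-0.76 in hTERT-RPE1 and -1.65 in U2OS cells) with an uncalled line difference of -0.89.

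Genes of DNA replication, mitosis and DNA repair had medians below that of all genes, with 1 called member in each list. The share called lower was 1.59% of all genes and 2.16% of genes with a symbol. Of 42 replication genes 16 had a symbol, 13 lay below 0 and their median was -0.27 against 0.03 for all genes. Cyclic loess normalization gave 11 below 0 and a median of -0.19. CDC6, which loads the replicative helicase at origins, was the 1 called member. CDC6 read 9.12 and 9.17 with control and 9.55 and 9.48 with NPAT siRNA in hTERT-RPE1 cells, and 10.24 and 10.20, then 10.05 and 10.02 in U2OS cells (line difference -0.55, SE 0.12, adjusted p 0.032). The shift was upward in 1 line and downward in the other, and the call was lost in each of the 8 fits with 1 array left out (adjusted p up to 0.127). CLSPN (0.59), RRM1 (0.42) and RRM2 (0.49), a checkpoint mediator and the 2 ribonucleotide reductase subunits, also rose in hTERT-RPE1 cells, and none of the 16 was called against control in U2OS cells by limma, where 3 had an unadjusted p under 0.05. FEN1, the flap endonuclease, stood apart with a line difference of 0.83 that was not called.

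All 6 mitotic genes with a symbol (of 35 listed) had negative line differences, with a median of -0.45, and after cyclic loess or quantile normalization 5 of 6 were negative. ECT2, the exchange factor that activates RhoA at cytokinesis, was called. It fell in U2OS cells from 9.78 and 9.73 to 9.28 and 9.16 and read 9.51, 9.50, 9.87 and 9.59 in hTERT-RPE1 cells (line difference -0.76, SE 0.16, adjusted p 0.0247). BORA, an activator of the mitotic kinases Aurora A and PLK1 outside this list, fell in U2OS cells from 7.54 and 7.52 to 6.73 and 6.81. In hTERT-RPE1 cells BORA read 6.47, 6.71, 6.78 and 6.62 with overlap between the groups (line difference -0.87, SE 0.17, adjusted p 0.0201). The kinetochore gene NUF2 fell in U2OS cells (-0.43), and its line difference of -0.59 was not called, nor was that of KIF11 (-0.63). ECT2 kept its call without the first hTERT-RPE1 control array or the second hTERT-RPE1 NPAT array (adjusted p up to 0.114), and BORA without either hTERT-RPE1 control array or the second hTERT-RPE1 NPAT array (adjusted p up to 0.0925).

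All 10 repair genes with a symbol (of 23) were below 0 too, with a median of -0.26, and 9 of 10 were with cyclic loess or quantile normalization. NBN, a subunit of the complex that senses double-strand breaks, fell in U2OS cells from 9.16 and 9.10 to 8.67 and 8.73 (line difference -0.60, SE 0.14, adjusted p 0.0369). Its call held only without the first hTERT-RPE1 control array (adjusted p up to 0.132), and it was lost with cyclic loess or quantile normalization. BRCA2 (0.43) and EXO1 (0.48), which act in homologous recombination, rose in hTERT-RPE1 cells with uncalled line differences of -0.20 and -0.27. The ribosome biogenesis gene WDR75, the 1 measured of 24, had a line difference of -0.63 (SE 0.14, adjusted p 0.0305) that held only without the second hTERT-RPE1 control array (adjusted p up to 0.13).

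**Figure D3:**
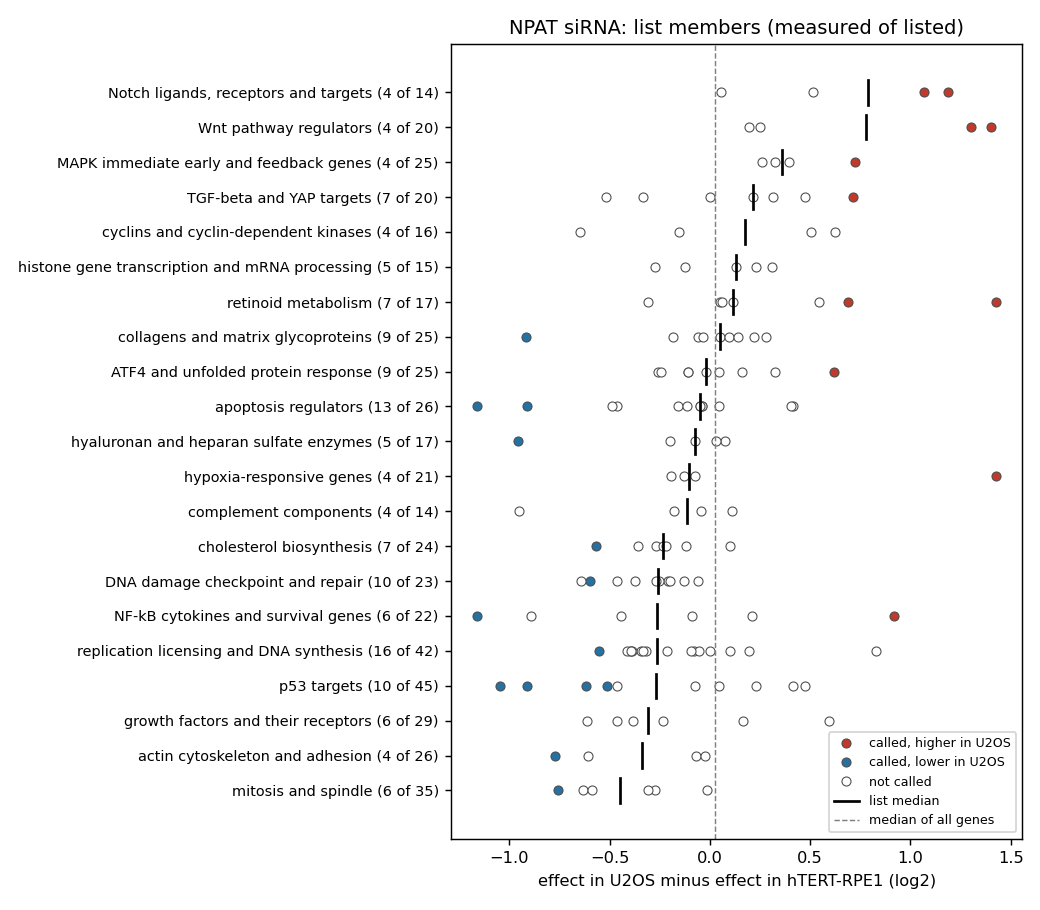
Line difference under NPAT siRNA (log2, x axis) of each member with a symbol, for the lists with 4 or more such members (measured of listed in parentheses). Red and blue points are called higher and lower in U2OS cells, black bars are list medians and the dashed line is the median of all genes (0.03). All 6 mitotic and all 10 repair genes lie below 0, and all members of the Wnt, Notch and MAPK lists lie above it.

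Other genes were called lower in U2OS cells, as were 1.59% of all genes and 2.16% of genes with a symbol. MGST1, a microsomal glutathione transferase, fell in U2OS cells from 9.59 and 9.66 to 8.78 and 8.63 and read 11.13, 10.56, 11.12 and 11.00 in hTERT-RPE1 cells (line difference -1.13, SE 0.23, adjusted p 0.0215). HAS2, which makes hyaluronan, was the 1 called of 5 measured genes of its list of 17 and rose in hTERT-RPE1 cells (5.20 and 5.56 to 5.89 and 6.14), with a line difference of -0.96 (SE 0.24, adjusted p 0.0456). CTSC, a lysosomal cysteine protease, rose in hTERT-RPE1 cells (10.74 and 10.53 to 11.21 and 11.14) and had a line difference of -0.88 (SE 0.17, adjusted p 0.0172). ITGA6, an integrin subunit for laminin, rose there from 9.01 and 9.45 to 9.93 and 9.91 (line difference -0.77, SE 0.17, adjusted p 0.028). FDFT1, squalene synthase, was the 1 called of 7 measured cholesterol genes of 24 and fell in U2OS cells (line difference -0.57, SE 0.12, adjusted p 0.0221).

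These 5 calls were lost in some of the fits with 1 array left out. MGST1 kept its call without either hTERT-RPE1 control array, the second hTERT-RPE1 NPAT array or the first U2OS NPAT array (adjusted p up to 0.0922), and CTSC without either hTERT-RPE1 control array, the second hTERT-RPE1 NPAT array or the second U2OS control array (adjusted p up to 0.0799). HAS2 kept it without the second hTERT-RPE1 control array or the second U2OS NPAT array, with line differences between -1.21 and -0.71 over the 8 fits (adjusted p up to 0.165). ITGA6 kept it without either hTERT-RPE1 control array (between -0.99 and -0.55, adjusted p up to 0.102) and lost it with cyclic loess (-0.67, adjusted p 0.0509) or quantile normalization (-0.66, 0.0573). FDFT1 kept it without either hTERT-RPE1 control array or the second U2OS NPAT array (between -0.63 and -0.51, adjusted p up to 0.0904).

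The largest line differences of all belonged to genes without a paired symbol. The lists count only genes with a symbol, so these identifiers may belong to p53 targets, histone genes or other listed genes. ENSG00000144158 rose in U2OS cells from 3.57 and 3.79 to 8.05 and 8.03 and read 3.90, 4.16, 3.91 and 4.27 in hTERT-RPE1 cells (line difference 4.30, SE 0.19, adjusted p 1.74e-07). ENSG00000103196 rose in U2OS cells from 4.22 and 4.36 to 7.15 and 7.30, against 7.41 and 7.49 with control and 7.61 and 7.76 with NPAT siRNA in hTERT-RPE1 cells (2.70, SE 0.18, adjusted p 7.44e-06). ENSG00000130513 rose in hTERT-RPE1 cells from 4.39 and 4.56 to 10.26 and 10.64, and read 8.80 and 8.81, then 9.38 and 9.54 in U2OS cells (-5.32, SE 0.29, adjusted p 1.11e-06). ENSG00000197409 rose in hTERT-RPE1 cells from 6.32 and 7.22 to 8.48 and 8.32 and fell in U2OS cells from 12.24 and 12.05 to 11.17 and 11.36 (-2.52, SE 0.32, adjusted p 0.00121). In each of the 4 the groups separated on every array in the line that changed most, and the calls held in all 8 fits with 1 array left out.

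To compare the siRNAs, the line differences of NPAT were set against those of CASP8AP2 and HINFP. The 3 line differences use the same control arrays, so their values are given side by side. Over the genes called higher in U2OS cells under NPAT siRNA, the median was 0.75 with NPAT, 0.62 with CASP8AP2 and 0.50 with HINFP siRNA. Over those called lower it was -0.73, -0.70 and -0.51. As medians, the line differences of the 764 genes thus had the same direction under all 3 siRNAs. The shared controls enter these medians. NPAT was tested against each of the others by a contrast in which the controls cancel. By this test 175 genes differed between the NPAT and CASP8AP2 line differences (0.793%), with 0.503% higher and 0.29% lower under NPAT, and 43 of them were among the 764 (5.63%). Between NPAT and HINFP 172 genes differed (0.779%), with 0.372% higher and 0.408% lower under NPAT, and 58 of them were among the 764 (7.59%). The NPAT arrays enter both these tests and the choice of the 764. A larger share among the 764 than among all genes is therefore not an independent result. With 1 array left out, the counts ran from 62 to 358 and from 73 to 116, and the 358 came without the second CASP8AP2 array of U2OS cells.

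SNAI1 and CA9 had larger line differences with NPAT than with CASP8AP2 siRNA. For SNAI1 the value was 2.31 with NPAT, 1.05 with CASP8AP2 and 1.52 with HINFP siRNA, and it exceeded that of CASP8AP2 by 1.26 (SE 0.19, adjusted p 0.00758), which held in all 8 fits with 1 array left out. The excess over HINFP was not called (adjusted p 0.0841). CA9 was called against both, with 1.42 under NPAT, -0.13 under CASP8AP2 and 0.09 under HINFP siRNA. Its differences were 1.56 (SE 0.26, adjusted p 0.0139) and 1.33 (SE 0.26, adjusted p 0.0339). The first was lost without the first NPAT array of either line or the second CASP8AP2 array of hTERT-RPE1 cells, and the second in each of the 8 fits (adjusted p up to 0.163). DKK1 had less under NPAT (1.40) than under CASP8AP2 (2.17) and HINFP siRNA (2.10), with adjusted p 0.0262 and 0.042. The first held only without the first CASP8AP2 array of U2OS cells and the second in none of the 8 fits.

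MCAM and FST separated NPAT from HINFP. The line difference of MCAM was -1.78 with NPAT, -1.65 with CASP8AP2 and -0.45 with HINFP siRNA (NPAT minus HINFP -1.33, SE 0.14, adjusted p 0.000792). For FST it was -1.20, -1.13 and -0.04 (NPAT minus HINFP -1.16, SE 0.14, adjusted p 0.00223). Both held in all 8 fits with 1 array left out, and neither was called against CASP8AP2 (adjusted p 0.809 and 0.916). VIP, a neuropeptide near the bottom of the range, had 0.77 with NPAT and -0.09 with HINFP siRNA (difference 0.86, adjusted p 0.0189), which held in 3 of 8 fits, without the first NPAT array or the first HINFP array of hTERT-RPE1 cells or the second HINFP array of U2OS cells. The line difference of VIP under NPAT (adjusted p 0.0177) was itself lost in 4 of 8 fits, without the second hTERT-RPE1 NPAT array, the first U2OS control array or either U2OS NPAT array (adjusted p up to 0.0785). CDC6 had -0.55 with NPAT and 0.11 with HINFP siRNA (difference -0.67, adjusted p 0.0284), which held only without the second HINFP array of hTERT-RPE1 cells. DHRS3 (1.43 and 2.32, adjusted p 0.0395) and COL8A1 (-0.91 and -0.24, adjusted p 0.0486) differed between NPAT and CASP8AP2, and each held in 1 of the 8 fits, without the second CASP8AP2 array of hTERT-RPE1 cells for DHRS3 and without the second NPAT array of hTERT-RPE1 cells for COL8A1.

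**Figure D4:**
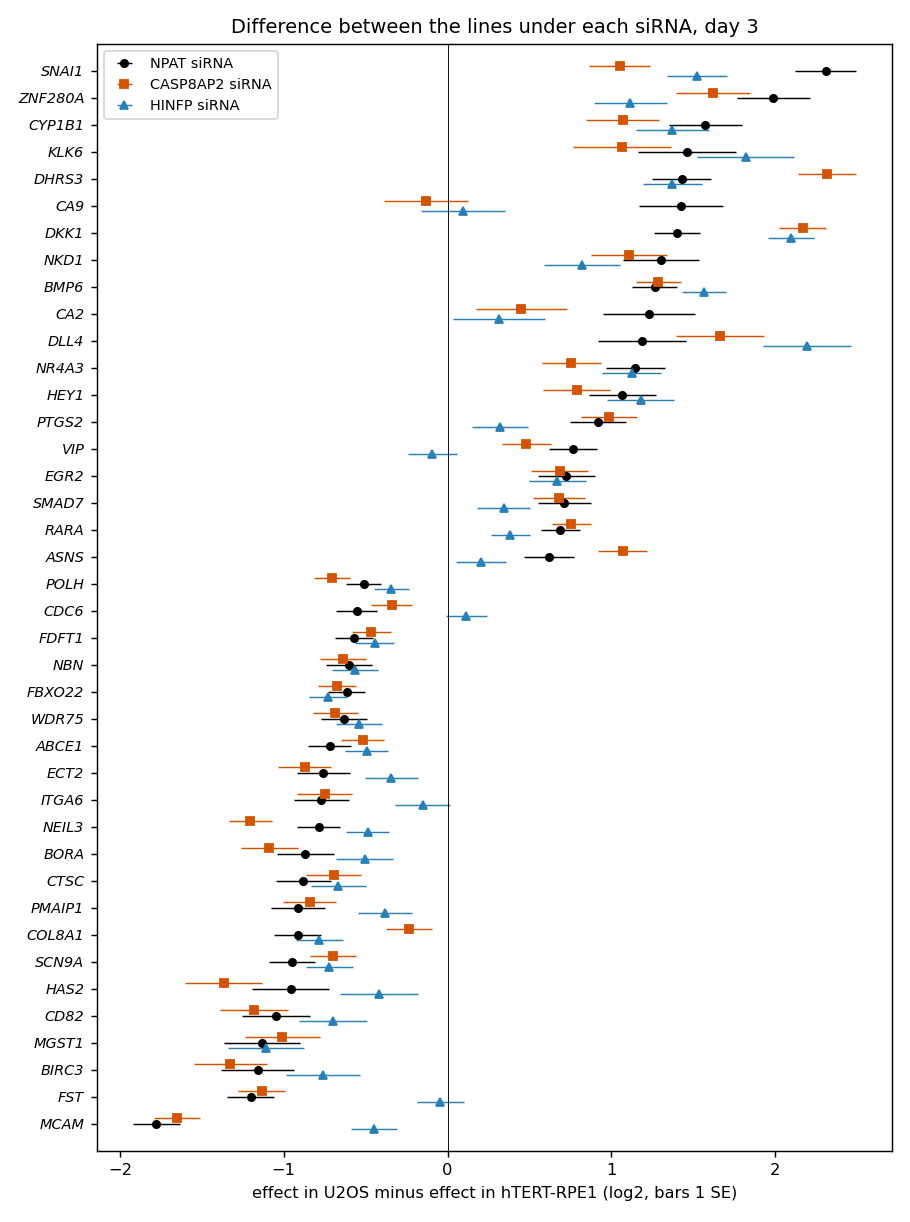
Line difference (effect in U2OS minus effect in hTERT-RPE1 cells, log2, x axis, bars 1 SE) of the 40 named genes with a symbol that were called under NPAT siRNA, for NPAT, CASP8AP2 and HINFP siRNA. The 3 siRNAs share control arrays. CA9 lies near 0 under the other siRNAs, FST and MCAM are closer to 0 under HINFP siRNA, and BMP6 lies between 1.27 and 1.56 under the NPAT, CASP8AP2 and HINFP siRNAs.

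Some genes were called in these tests without a called NPAT line difference. The potassium channel gene KCNJ15 had -0.39 with NPAT and -1.79 with CASP8AP2 siRNA (adjusted p 0.000639), SPINK1, a trypsin inhibitor, -0.26 and 1.49 (adjusted p 0.000877), and IL13RA2, a decoy receptor for interleukin 13, -0.39 and 1.29 (adjusted p 0.00214). RGS4, a regulator of G protein signaling, had -0.68 and 0.69 (adjusted p 0.00344). Against HINFP they were CD22, a sialic acid binding lectin (-0.24 with NPAT and 1.63 with HINFP siRNA, adjusted p 0.00318), and ANGPT2, a ligand of the TIE2 receptor (0.62 and 2.01, adjusted p 0.00716). These 6 calls held in all 8 fits with 1 array left out. The line differences of these genes had opposite signs or were larger under the other siRNA. KCNJ15, SPINK1 and ANGPT2 were near the bottom of the range on the NPAT and control arrays of both lines. IL13RA2 was so in hTERT-RPE1 cells, and CD22 in the hTERT-RPE1 controls. Under CASP8AP2 siRNA the mean was 6.13 for KCNJ15 in hTERT-RPE1 cells, and 5.62 for SPINK1 and 7.06 for IL13RA2 in U2OS cells. ANGPT2 had a mean of 5.50 in U2OS cells with HINFP siRNA. ADAMTS14, a procollagen protease, had -0.07 with NPAT, -1.03 with CASP8AP2 and -1.08 with HINFP siRNA (adjusted p 0.0117 and 0.00764). Its first call held in 4 of 8 fits, lost without the first NPAT or first CASP8AP2 array of hTERT-RPE1 cells, the second NPAT array of U2OS cells or the first CASP8AP2 array of U2OS cells. ALOX5AP, which activates 5-lipoxygenase, had 0.23 and -1.35 with CASP8AP2 siRNA (adjusted p 0.0395), lost in each of the 8 fits. CCNA1, cyclin A1, rose in U2OS cells (4.28 and 4.00 to 5.33 and 4.95, adjusted p 0.0069) with an uncalled line difference of 0.62 (adjusted p 0.216). Its U2OS controls were near the bottom of the range, so no fold is given for it.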

How the data were processed

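RNA from hTERT-RPE1 and U2OS cells was hybridized to Affymetrix Human WT 1.1 arrays. Per the labels and the study's methods, the authors processed the arrays with affy and limma in R, with a custom probe grouping by Ensembl gene, and deposited 1 log2 expression value per gene and array. The submitters' processing notes also name RMA, and the version of the probe grouping and the build are not given in the sources used here. An array has no read depth, and precision is limited by the 2 arrays per group.

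The fit used limma 3.58.1 in R 4.3.3 (lmFit and eBayes) on the 16 day 3 arrays with 8 group means and 8 residual degrees of freedom, without a filter. The Benjamini-Hochberg adjustment ran over all 22069 genes, with 0.05 as threshold. The members and lists were chosen with earlier results of these data known. Among called genes with a symbol whose NPAT and control arrays separated in at least 1 line, the 12 with the largest line difference in each direction were named. Also named were up to 4 called members of each list, the 5 largest with opposite calls, the 3 largest in each direction in the tests against CASP8AP2 and HINFP, at most 2 genes in each direction without a symbol, and NPAT, CASP8AP2, HINFP and CCNA1. A few genes that the rule or the lists hold are not reported here. Uncalled list members were picked after their values were seen. Symbols came from pairs of identifier and name in the study's screen tables, for 1901 genes, of which 119 were updated through RefSeq. The step was tested on simulated data. Alternatives were other samples in the fit, normalizations, a filter on low values, a replicate block, a size threshold and leaving out each array.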

Additional observations from a re-analysis of the deposited data

Results flagged for a closer look

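The effect of NPAT siRNA differed between the lines by limma's test of the difference for 764 genes, with 412 higher and 352 lower in U2OS cells. The line difference of NPAT differed from that of CASP8AP2 for 175 genes and from that of HINFP for 172. With 2 arrays a group, no array could be tested for standing apart from its group.

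The named genes whose response differed with a higher value in U2OS cells are given by their line difference (log2). The gene without a symbol ENSG00000144158 had 4.30 and ENSG00000103196 had 2.70. Transcription factors were SNAI1 at 2.31, ZNF280A at 1.99, NR4A3 at 1.15, HEY1 at 1.07, EGR2 at 0.73 and the receptor RARA at 0.69. Secreted and signaling proteins were KLK6 at 1.46, DKK1 at 1.40, NKD1 at 1.30, BMP6 at 1.27, DLL4 at 1.19, VIP at 0.77 and SMAD7 at 0.71. Enzymes were CYP1B1 at 1.57, DHRS3 at 1.43, CA9 at 1.42, CA2 at 1.23, PTGS2 at 0.92 and ASNS at 0.62.

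Those with a lower value in U2OS cells were led by ENSG00000130513 at -5.32 and ENSG00000197409 at -2.52. Surface, secreted and matrix proteins were MCAM at -1.78, FST at -1.20, CD82 at -1.05, HAS2 at -0.96, SCN9A at -0.95, COL8A1 at -0.91 and ITGA6 at -0.77. Genes of the cell cycle and DNA repair were BORA at -0.87, NEIL3 at -0.79, ECT2 at -0.76, NBN at -0.60, CDC6 at -0.55 and POLH at -0.51. Regulators of cell death and turnover were BIRC3 at -1.16, PMAIP1 at -0.91, CTSC at -0.88 and FBXO22 at -0.62. Other genes were MGST1 at -1.13, ABCE1 at -0.72, WDR75 at -0.63 and FDFT1 at -0.57.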

How the results depend on the processing

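With only the 8 arrays compared, 455 genes had a called line difference (242 higher, 213 lower), 646 were called in hTERT-RPE1 cells, and 112 and 110 differed from the CASP8AP2 and HINFP line differences. With all 40 arrays these were 2131 (952 higher, 1179 lower), 2477, 645 and 566, with 3156 in U2OS cells. Whether days 1 and 2 were normalized together with day 3 is not given in the sources used here, so the pooled counts are uncertain. Requiring an absolute log2 difference of at least 1 left 170 (102 higher, 68 lower), 118 in U2OS and 76 in hTERT-RPE1 cells, and 88 and 80. The other settings kept these counts within 1.5 times. Leaving out 1 array gave 153 to 874 called genes (87 to 439 higher, 66 to 435 lower), 510 to 927 in U2OS cells, 235 to 875 in hTERT-RPE1 cells, 62 to 358 against CASP8AP2 and 73 to 116 against HINFP. The line differences of 2 uncalled genes changed sign. ALOX5AP ran from -0.027 (without the first hTERT-RPE1 control array) to 0.49. ADAMTS14 ran from -0.21 to 0.061 (without the second hTERT-RPE1 NPAT array), with 0.0058 without the first U2OS NPAT array. The cause was not tested.

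Of the 764 genes, 393 were also called with only the 8 arrays, 731 with all 40, 637 after median centring and 592 after cyclic loess. Of the 44 named calls, 33, 44, 42 and 39 were kept. RGS4 became called with all 40 arrays (-0.68, adjusted p 0.00128) and after centring (-0.73, adjusted p 0.0455), and ANGPT2 with all 40 arrays (0.62, adjusted p 0.0457). The main fit did not treat replicate numbers as pairs. The replicate differences of 2 groups correlated with r between -0.03 and 0.14, which cannot show whether the samples were paired. A replicate block shared by the lines gave 779 called genes, and a block within each line gave 655. Genes near the bottom of the intensity range and differences small against a median SE of 0.16 are the limit of these arrays.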

Other observations

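The genes here were chosen after their values were seen. RHOB, a small GTPase of endosomes and actin, read 7.32 and 7.29 with control and 8.48 and 8.53 with NPAT siRNA in U2OS cells. In hTERT-RPE1 cells RHOB read 8.33 and 8.50 with control and 8.62 and 8.66 with NPAT siRNA (line difference 0.98, SE 0.15, limma adjusted p 0.00532). SIM2, a basic helix-loop-helix factor, fell in hTERT-RPE1 cells from 7.82 and 7.76 to 7.13 and 7.24 and read 5.97, 5.88, 6.23 and 6.15 in U2OS cells (0.87, SE 0.14, adjusted p 0.00645). Both calls held in all 8 fits with 1 array left out.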
